A study of Caenorhabditis elegans with 4 samples.

Results

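Of the 10244 autosomal peaks in a pooled ChIP-seq list for the SIX-family homeodomain protein UNC-39, 2350 had their summit in an intron of a protein-coding gene and away from promoters (22.9%, 95% exact interval 22.1 to 23.8). The members were chosen by position alone. A summit had to lie inside a protein-coding gene and in none of its or another protein-coding gene's exons, and not between 1000 bp upstream and 200 bp downstream of any protein-coding transcript start. The whole pooled list held 12797 peaks, and 595 further peaks met the same rule on the X chromosome and were not members. Each member was 364 bp long, and 98 of them (4.17%) overlapped another member, so that the 2350 peaks covered 2301 separate regions.

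Chromatin came from whole L3 larvae of both sexes, in 4 biological replicates of a single group. The strain was OP186, genotype unc-119(ed3) III; wgIs186, in which a stable transgene makes UNC-39 with GFP and FLAG at its C terminus. All 4 libraries share this genotype and stage. There was thus no second group to compare with, and a control experiment that the labels name was not analysed here. Whole larvae mix every tissue, and the antibody entry reads unc-39 without saying whether the tag or the protein was recognised.

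UNC-39 belongs to the SIX-family transcription factors, which bind DNA through a homeodomain and the domain before it, and in C. elegans it is known for roles in mesoderm and in the migration and fate of neurons. Introns of worm genes can hold enhancers, in particular the long first introns of developmental genes, and they also hold many genes for small RNAs. Among these are the small nucleolar RNAs (snoRNAs), which guide chemical modification of other RNAs, the small nuclear RNAs (snRNAs) of splicing, the tRNAs of translation and the microRNAs (miRNAs), which silence messenger RNAs.

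The 7 sequences given here are the centres, 50 bp to either side of the summit, of the strongest members on chromosomes II to V whose centre occurs once in the genome and that were also in the authors' list thresholded by the irreproducible discovery rate (IDR), a measure of how alike replicates rank peaks. They come from the WBcel235 (ce11) RefSeq sequence and are written 5′ to 3′ on the + strand. Capitals mark 6 leading words of 6 bases on either strand, which were more frequent at the summits of the 200 strongest members than in their flanks and were picked after those counts were seen. The first of these words is CTCTCC and the next in order is AGAGAA, which overlaps a further word, GAGAGA, in runs of GA. The CA-rich words are ACACAA and, as the last in order, ATACAC, and the remaining word with a CG step is CGTCTC.
pqn-41 (chrIII:1925348-1925448, + strand): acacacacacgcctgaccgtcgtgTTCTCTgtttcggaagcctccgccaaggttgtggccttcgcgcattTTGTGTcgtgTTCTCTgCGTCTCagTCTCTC
W06H8.6 (chrV:6224751-6224851, + strand): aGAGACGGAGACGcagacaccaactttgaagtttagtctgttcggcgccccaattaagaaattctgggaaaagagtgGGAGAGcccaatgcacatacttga
pxn-1 (chrV:8500502-8500602, + strand): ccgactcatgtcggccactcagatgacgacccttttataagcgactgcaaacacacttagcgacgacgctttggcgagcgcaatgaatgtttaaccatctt
zfp-1 (chrIII:8800148-8800248, + strand): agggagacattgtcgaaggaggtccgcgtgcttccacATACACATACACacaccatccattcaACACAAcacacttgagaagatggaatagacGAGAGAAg
Y62E10A.13 (chrIV:13395343-13395443, + strand): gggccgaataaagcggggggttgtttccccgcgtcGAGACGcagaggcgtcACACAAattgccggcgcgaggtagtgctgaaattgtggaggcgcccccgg
zfp-1 (chrIII:8795868-8795968, + strand): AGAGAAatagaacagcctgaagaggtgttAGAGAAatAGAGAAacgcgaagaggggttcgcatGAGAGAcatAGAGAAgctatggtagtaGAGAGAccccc
egl-27 (chrII:6838535-6838635, + strand): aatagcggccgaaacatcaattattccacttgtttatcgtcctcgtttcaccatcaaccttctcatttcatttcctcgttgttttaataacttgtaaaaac
The pxn-1 centre, which lies beside a snoRNA gene, holds 0 of the leading words. The later zfp-1 sequence is rich in GA repeats and holds 6 matches, while the pqn-41 and the earlier zfp-1 sequences hold 5 each. The egl-27 centre, which is rich in T, also holds 0. The Y62E10A.13 centre is the most GC-rich of the 7, at 64.4% against 37.1% in its flanks.

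Autosomal introns outside promoters and exons made up 22.7 Mb, or 27.5% of autosomal sequence. They held 104 peaks per Mb (95% exact Poisson interval 99.5 to 108), against 141 in promoters, 161 in exons and 94.7 in intergenic sequence. Intronic peaks were therefore sparser than promoter and exon peaks and slightly denser than intergenic ones, beyond counting error over peaks. Peaks of 1 pooled list are not replicates, and such intervals cover counting error only. By chromosome the density was 93.3 per Mb on I, 109 on II, 106 on III, 88.9 on IV and 122 on V. The interval for V (113 to 133) lay above those for I (85.0 to 102) and IV (80.5 to 97.9).

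Members and other autosomal peaks had nearly the same pooled signal. The members' signal, the authors' own value relative to a control, ran from 16.4 to 71.0 with a median of 19.4, and the other autosomal peaks had a median of 19.6 and a maximum of 84.5. Among the 100 strongest autosomal peaks 23.0% were members (15.2 to 32.5), and the share was 20.5% from there to rank 500, and 22.8%, 21.9%, 22.4% and 23.6% for ranks 501 to 1000, 1001 to 2000, 2001 to 5000 and 5001 to 10244. The share thus stayed within a narrow range from the strongest to the weakest peaks. Members and other autosomal peaks alike mostly had little support by the deposited q-value column, read as −log10 of q. The median q was 0.932 for members and 0.931 for the others. In that column 5 of the 2350 members and 24 of the 7894 others reached 1.3 or more. Read depth is unknown, because the files give peaks and no read counts.

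Support in single replicates was likewise close to that of the rest. The share of members overlapped by at least 1 bp by a replicate's 1000 strongest peaks was 7.19%, 6.51%, 3.40% and 3.83% in replicates 1 to 4. For other autosomal peaks it was 6.25%, 7.06%, 4.41% and 4.79%. Members were thus ahead in replicate 1 and behind in the other 3. The mean difference was −0.39 ± 0.915 percentage points (SD, n = 4), which was not larger than the spread between replicates (two-sided exact sign-flip permutation test, p = 0.375, adjusted p = 0.5625 over 3 such tests). With 4 replicates that test cannot reach 0.05, and its p-value measures only the spread between these replicates.

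Whole relaxed lists gave the same picture. They overlapped 69.4%, 73.9%, 21.7% and 45.4% of members in replicates 1 to 4, and 68.7%, 72.4%, 24.1% and 45.7% of the other autosomal peaks. The low value of replicate 3 goes with its shorter list of 13225 peaks, against 30000, 30000 and 29529 in replicates 1, 2 and 4. The difference, −0.148 ± 1.64 percentage points, was within the spread between replicates (exact sign-flip permutation p = 0.875, adjusted p = 0.875). It was 0.587 without replicate 3, and 2.61 when the whole peak had to lie in the intron (exact permutation p = 0.13, rounded, the smallest that 4 replicates allow).

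Intronic peaks were also counted in each replicate's own list by the same rule. They made up 23.6%, 23.7%, 24.4% and 25.8% of autosomal peaks in replicates 1 to 4 (mean 24.4 ± 1.01, SD, n = 4). Among each replicate's 1000 strongest autosomal peaks the share was 24.0%, 20.5%, 20.8% and 21.4% (mean 21.7 ± 1.59). The strongest peaks were thus less often intronic in replicates 2, 3 and 4 and not in replicate 1. The mean difference of −2.71 ± 2.14 percentage points was not distinguishable from 0 by the exact sign-flip permutation test over the 4 replicates (p = 0.25, adjusted p = 0.5625).

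**Figure D1:**
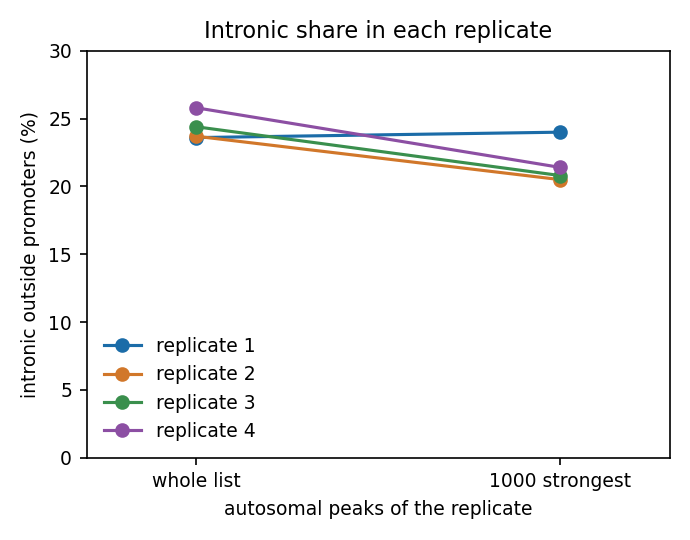
Share of each replicate's autosomal peaks that were intronic and outside promoters (%, vertical axis), in its whole list and among its 1000 strongest peaks; each line is 1 replicate. The lines of replicates 2, 3 and 4 fall from left to right and that of replicate 1 stays near 24.0%.

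Few of the same intronic places were at the top in different replicates. Of each replicate's own 100 strongest intronic peaks, the share that overlapped one of another replicate's 100 strongest averaged 9.33% ± 5.23 (SD over 6 pairs, which share replicates). The highest value was 18.5%, for replicates 3 and 4, and the lowest was 5.0%, for replicate 2 with 1 and with 3. In the pooled list, 1934 of the 2350 members (82.3%) were overlapped by no replicate's 1000 strongest peaks, 356 by those of 1 replicate, 46 by 2, 12 by 3 and 2 by all 4. Those 2 members lay in dhc-4 and W06H8.6 and made up 0.0851% of members, against 0.146% of all autosomal peaks (15 of 10244). The other classes were also close to the background. Of the other autosomal peaks, 80.9% were overlapped by none, 16.4% by 1, 2.12% by 2 and 0.418% by 3. For members these shares were 82.3%, 15.1%, 1.96% and 0.511%, so the low sharing was not particular to members.

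The thresholded list held 13 members in 12 genes, or 0.553% (0.295 to 0.944), close to the 0.547% of all autosomal peaks (56 of 10244). The share was 0.923% for promoter peaks, 0.653% for intergenic peaks and 0.0686% for exon peaks. Members were thus near the background. With the whole peak required to lie in the intron it was 0.892% (9 of 1009), with an interval of 0.409 to 1.69 that includes the background. By contrast, exon peaks, with 2 in the list and an interval of 0.00831 to 0.248, lay below it. Of the 13 members, 12 were among the 1000 strongest peaks of at least 2 replicates. The list was made from the ranks in these same replicates, so this describes the list and is no separate support. Of the 13, 6 lay in a first intron and 4 lay within 300 bp of a small RNA gene. Their introns ranged from 286 to 8604 bp, and their summits were 503 to 5663 bp from the nearest protein-coding start. That start belonged to another gene for the dhc-4 (col-94, 1831 bp), ercc-1 (ncs-2, 1805 bp) and stronger zfp-1 peaks (F54F2.6, 503 bp). The same holds for some weaker members named below, such as those in C08D8.1 and osm-9. Members are named by the gene that holds the summit, and which gene a peak might act on was not tested.

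The strongest member lay in pqn-41, a gene for a glutamine-rich protein that acts in the programmed death of the linker cell of the male gonad (chromosome III, 1925216 to 1925579). Its pooled signal was 71.0, and it sat in the 7770 bp first intron, 2273 bp from the pqn-41 start, with no non-coding gene within 300 bp. It was ranked 1382, 3144, 34 and 20 in replicates 1 to 4, so that it was near the top in replicates 3 and 4 and outside the 1000 strongest in replicates 1 and 2. Its signal was 13.5, 13.3, 14.1 and 32.8 in those lists, whose scales differ.

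The next member lay in a 360 bp intron of dhc-4, a dynein heavy chain gene (pooled signal 67.6), and its summit was inside a snRNA gene. It was ranked 31, 28, 94 and 842, within the 1000 strongest of every replicate. Its centre recurs elsewhere in the genome, so reads from other copies cannot be told apart from reads of this place. The W06H8.6 member (V, 6224619 to 6224982, signal 57.7), also in the 1000 strongest of every replicate, was ranked 270, 41, 95 and 204, and its centre occurs once. Beside it lies W06H8.16, annotated as a non-coding RNA.

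The pxn-1 member (V, 8500370 to 8500733, signal 57.1), in a gene for a peroxidasin of the extracellular matrix, had its summit 27 bp before the 5′ end of the snoRNA gene ZK994.7. It was ranked 36, 916 and 56 in replicates 1, 3 and 4 and overlapped no peak in replicate 2. In ercc-1, which encodes a subunit of a DNA repair endonuclease, the member at 10032829 to 10033192 on chromosome I (signal 53.7) was ranked 66, 269, 116 and 2396. It was thus high in 3 replicates and lower in replicate 4.

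A gene with 2 thresholded members was zfp-1, which encodes a zinc finger protein that acts with the histone methyltransferase DOT-1.1 (both on chromosome III and in first introns of its transcripts). The peak at 8800016 to 8800379 (signal 51.7) was ranked 14942, 39, 146 and 48. The peak at 8795736 to 8796099 (signal 45.0) was ranked 67, 81 and 51 in replicates 1, 3 and 4 and was absent from replicate 2. The pair were thus both near the top in replicates 3 and 4 and differed in replicates 1 and 2. The egl-27 member (II, 6838403 to 6838766, signal 44.9), in a gene for a protein related to subunits of the NuRD chromatin complex, was ranked 225, 3977, 139 and 314.

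The remaining thresholded members were in Y62E10A.13, haf-9, mpk-1, Y43F8B.2 and Y38F2AR.12. The Y62E10A.13 peak (IV, 13395211 to 13395574, signal 50.2) was ranked 1046, 134, 2899 and 1126, and is the 1 member of the 13 that was among the 1000 strongest of a single replicate. The haf-9 peak (I, 6082660 to 6083023, signal 43.8), in a gene for a half-type ABC transporter of gut granules, lay 37 bp before the snoRNA gene ZK484.9 and was ranked 1210, 349, absent and 378. The mpk-1 peak (III, 4223774 to 4224137, signal 43.5), in the 8247 bp first intron of the ERK-type MAP kinase gene, was ranked 241, 4271, 960 and 302. All but replicate 2 thus placed the mpk-1 peak among their 1000 strongest. The Y43F8B.2 peak (V, 19529176 to 19529539, signal 42.2) was ranked 686, 8698, 39 and 1048. The Y38F2AR.12 peak (IV, 2408508 to 2408871, signal 42.0), 55 bp before the snoRNA gene Y38F2AR.14, was ranked 1457, 569, 2124 and 388.

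**Figure D2:**
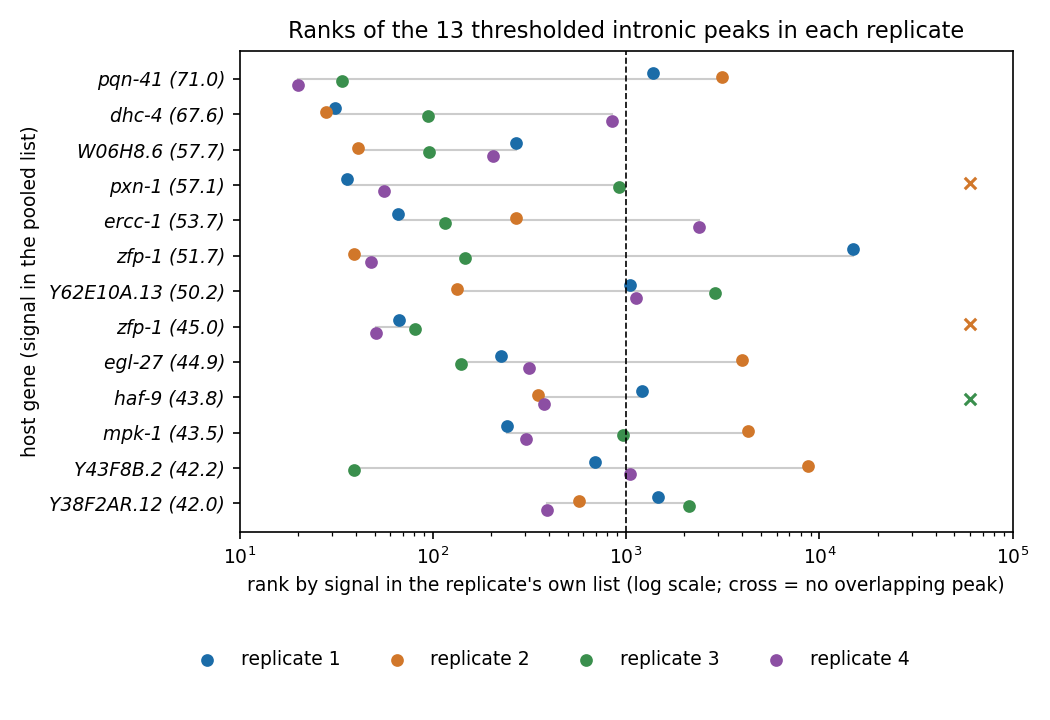
Rank by signal in each replicate's own list (log axis, 1 is the strongest) of the 13 intronic peaks in the thresholded list, in order of pooled signal, which is given beside the host gene; crosses mark replicates with no overlapping peak and the dashed line marks rank 1000. The dhc-4 and W06H8.6 peaks lie left of the line in all 4 replicates, and the earlier zfp-1 peak runs from rank 39 to rank 14942.

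Next in signal, and outside the thresholded list, came members in ppfr-1 (41.5), larp-1 (41.0), inx-11 (40.3), C08D8.1 (40.1), vhp-1 (40.1), T28D6.4 (39.7) and fkh-7 (39.6). Of these, ppfr-1 encodes a regulatory subunit of protein phosphatase 4, larp-1 a La-related RNA-binding protein, inx-11 a gap junction innexin, vhp-1 a MAP kinase phosphatase and fkh-7 a forkhead transcription factor. Replicates again differed in placing them. The vhp-1 peak was ranked 11731, 28091, 184 and 34, and the C08D8.1 peak 3309, 3500, 8161 and 60. The larp-1 peak was ranked 306, 997, 3473 and 2862, high in the pair of replicates where the vhp-1 peak was low.

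A further 6 members were among the 1000 strongest of 3 replicates without being in the thresholded list, and they are named here because of those ranks. They lay in let-526, a subunit gene of the SWI/SNF chromatin remodelling complex (I, 5316238 to 5316601, ranked 217, 1815, 296 and 172), ifbp-1 (2 overlapping members), ercc-1, ppfr-1 and pqn-41. The ercc-1 one overlapped the stronger ercc-1 member and the same replicate peaks. The pqn-41 one (III, 1921246 to 1921609) was in the same intron as the strongest member, and was ranked 451, 12127, 269 and 89 although its pooled signal of 19.9 put it at 1044 among the members. The ppfr-1 one, with a pooled signal of 21.1, was ranked 332 in replicate 2 and 58 in replicate 4 but 8144 in replicate 3. High ranks in 3 replicates thus also occurred at modest pooled signal.

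Small RNA genes lay near the strongest members much more often than near the rest. A snoRNA, snRNA, tRNA, rRNA or miRNA gene was within 300 bp of the summit of 81 members (3.45%), while 0.754% of the intronic sequence that the rule could take is that near to one. The share was 28.0% among the 50 strongest members (14 of 50, 16.2 to 42.5), 8.67% at ranks 51 to 200, 3.5% at ranks 201 to 1000 and 1.93% at ranks 1001 to 2350. It thus fell with rank, and even in the weakest class was above the share of sequence. This grouping of genes was chosen after the names beside the strongest members were seen, and so gets no test. Other autosomal peaks lay near such genes too. Leaving out peaks near them took all autosomal peaks from 10244 to 9964, and members from 2350 to 2269. In the thresholded list it took all autosomal peaks from 56 to 45, and members from 13 to 9. The pattern is thus not shown to be particular to members, and shares by rank were not counted in the other peaks.

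**Figure D3:**
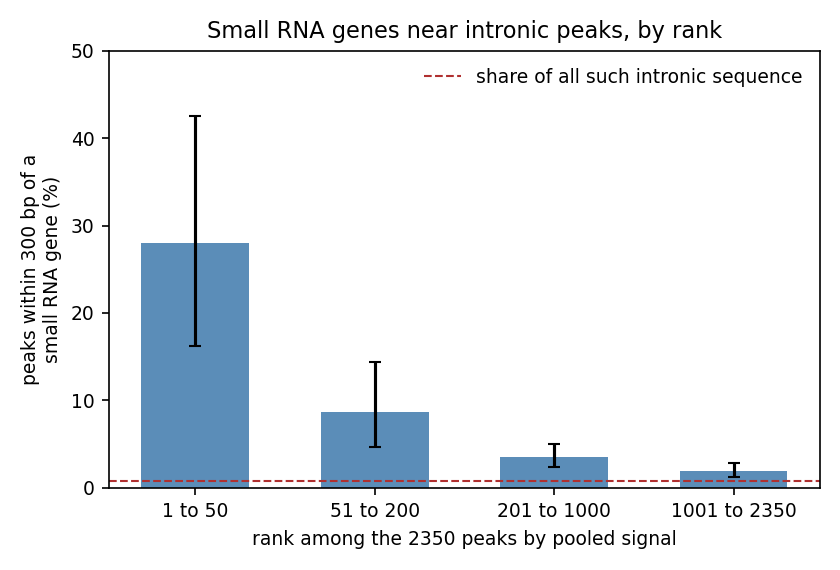
Percent of intronic peaks whose summit was within 300 bp of a snoRNA, snRNA, tRNA, rRNA or miRNA gene, by rank of pooled signal among the 2350 peaks; whiskers are 95% exact intervals (counting error only) and the dashed line is the share of intronic sequence that near to such a gene, 0.754%. The bars fall from 28.0% to 1.93%.

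Within this group, snoRNA genes stood at the top and tRNA genes lower down. A snoRNA gene was near 32 members (1.36%, against 0.258% of sequence), among them 10 of the 50 strongest. A tRNA gene was near 39 members (1.66%, against 0.265% of sequence), with 1 among the 50 strongest. Only 6 members were near a snRNA gene and 4 near a miRNA gene, one of them cel-mir-71 beside the strongest ppfr-1 member. The piRNA genes, which are small and numerous, showed no such excess: 57 members (2.43%) were near one, against 4.38% of sequence. Genes annotated as ncRNA, outside the group, did: 187 members (7.96%) were near one, against 3.71% of sequence. Among the 50 strongest members it was 18.0%, and some of these members were beside a small RNA gene as well. The excess was thus not limited to the grouped classes.

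Counted from the genes, 31 of the 117 snoRNA genes in such introns (26.5%, 18.8 to 35.5) had a member within 300 bp, and so had 42 of 155 tRNA genes (27.1%, 20.3 to 34.8). For snRNA genes it was 6 of 46 and for miRNA genes 6 of 58. The 1000 strongest peaks of replicates 1 to 4 lay at 7, 7, 8 and 15 of the snoRNA genes and at 4, 2, 9 and 9 of the tRNA genes. Most intronic small RNA genes thus had no member, and replicate 4 marked the most snoRNA genes.

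Single replicates, each ranked on its own, showed the same order. Among a replicate's 100 strongest intronic peaks, 10%, 4%, 12% and 18% were near a small RNA gene in replicates 1 to 4, against 1.72%, 1.52%, 2.77% and 1.85% of its other intronic peaks. The difference was 9.05 ± 5.62 percentage points (SD, n = 4), higher in 4 of 4 replicates, and was smallest in replicate 2. The same libraries entered both the pooled ranking and these lists, so the replicates are a breakdown of the pooled pattern.

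For members near small RNA genes, the place of the summit was measured from the 5′ end of the gene. The median summit was 19 bp into the gene, 25% lay 40 bp or more before the 5′ end, and 59 of 81 were within 100 bp of it. Inside the gene body were 32 of the 81. Many of these genes are themselves shorter than 100 bp, so such summits can be as near the 3′ end, whose distance was not measured. At the 14 among the 50 strongest members the median summit was 26 bp before the 5′ end. Named cases were K11C4.6 in unc-70 (beta-spectrin, rank 28 among members) with the summit 114 bp before the snoRNA gene, C27H6.5 in unc-41 (a stonin of synaptic vesicle recycling) with it 25 bp before, and the tRNA gene in the chemoreceptor gene srv-16 with it 62 bp inside.

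Since the grouping was prompted by strong members, the signal of the 81 members near small RNA genes restates it: their median was 22.3, against 19.3 for the other 2269. Of the 81, 12.3% were among the 1000 strongest peaks of at least 2 replicates, against 2.2% of the others, and this too is a description. Median GC content at the summit was 49.5% against 38.6%, and fewer were in a first intron (19.8% against 32.3%). Of the 16 members whose central 51 bases occur more than once in the genome, 10 were near a small RNA gene. Both GC content and repeated sequence thus moved with the grouping, and their part in the signal was not tested.

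Without peaks near small RNA genes, the thresholded share of members was 0.397% (9 of 2269, 0.182 to 0.752), against 0.452% of all autosomal peaks left (45 of 9964). Under the same restriction the difference in a replicate's 1000 strongest peaks was −0.50 percentage points (exact permutation p = 0.375). The 9 thresholded members not near such a gene included the pqn-41, W06H8.6, ercc-1, zfp-1, egl-27 and mpk-1 peaks. Of these, the W06H8.6 and ercc-1 peaks had a gene annotated as ncRNA within 300 bp.

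Members were densest in the shortest and the longest introns. The density was 131 per Mb (122 to 140) in introns under 500 bp, fell to 82.9 at 500 to 999 bp and 70.6 (63.2 to 78.7) at 1000 to 1999 bp, and rose again to 99.5 at 2000 to 4999 bp and 149 (134 to 166) in introns of 5000 bp or more. These are 856, 448, 332, 374 and 340 members. In the shortest class a median of 44.2% of each 364 bp peak lay in exons, and 0% from 1000 bp up. Short-intron members thus reach into flanking exons. Exon peaks were the densest class of all, and whether this bears on the density in short introns was not tested. With the whole peak required to lie in the intron, 1009 members were left and the density in introns of 5000 bp or more was 144 per Mb.

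The longest introns stood above the average in every replicate's own list, by a ratio to all such introns of 1.23, 1.20, 1.39 and 1.21 in replicates 1 to 4. The shortest introns did so clearly in replicates 1 and 2 (1.31 and 1.24) and barely in replicates 3 and 4 (1.02 and 1.05). Introns of 1000 to 1999 bp were below the average in all 4, at 0.685, 0.735, 0.814 and 0.884. The excess in short introns was thus mostly carried by replicates 1 and 2. Their lists hold 30000 peaks each and that of replicate 4 holds 29529, and any part of list length was not tested.

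**Figure D4:**
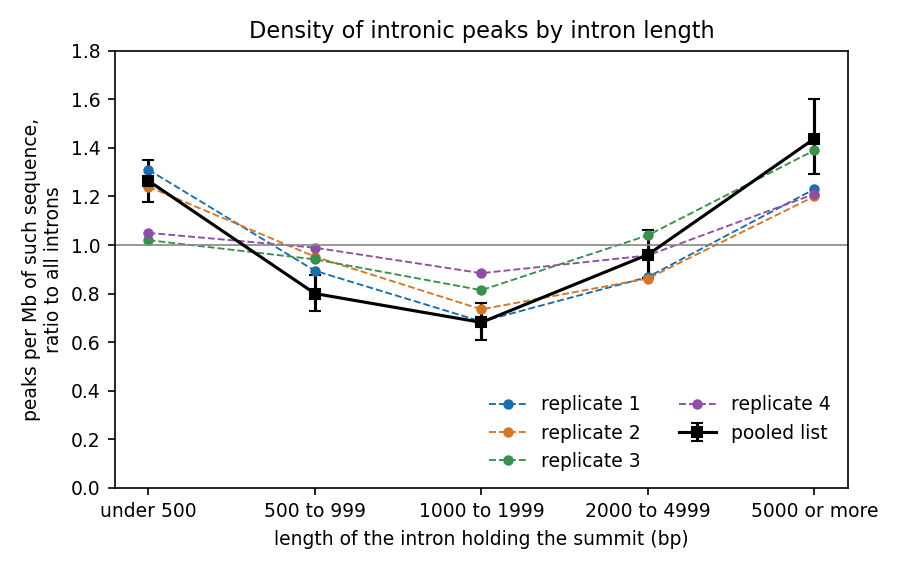
Intronic peaks per Mb as a ratio to all introns outside promoters and exons (vertical axis), by length of the intron in bp; squares are the pooled list with 95% exact Poisson intervals (counting error only) and circles each replicate's own list. All 5 lines lie above 1 in introns of 5000 bp or more and below it at 1000 to 1999 bp.

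Members in long introns were also stronger and more often in a first intron. In the 2 classes from 2000 bp up, 11.5% of members were among the 200 strongest, against 7.48%, 5.58% and 8.73% in the shorter classes. First introns held 16.8% of members in introns under 500 bp and 55.6% in those of 5000 bp or more. The first-intron share of sequence was not counted by length class, so this rise has no background and may be that of the annotation. Over all lengths, 750 members (31.9%) were in a first intron, against 27.7% of the intronic sequence that the rule could take. Their density had an interval of 111 to 128 per Mb, against 97.7 per Mb (92.9 to 103) in other introns. The median member lay 1560 bp from the nearest protein-coding start and in an intron of 834 bp, with a range of 202 to 20811 bp from the start.

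GC content at the summit was only a little above that of the flanks over all members. The median was 38.6% within 50 bp of the summit and 37.1% in windows of that width centred 300 bp to either side, with a median difference of 0.99 percentage points, and 54.4% of members were higher at the summit. The rule kept members' summits out of protein-coding exons, while these flank windows could reach into them. Other autosomal peaks, exon peaks among them, were under no such limit, so the comparison is not like for like. They had 41.6% and 36.6%, with a median difference of 4.46 points. The 50 strongest members were like these, at 46.0% and 39.9% (4.95 points), and the 13 thresholded members had 47.5% and 39.6% (5.45 points, higher in 10 of 13). Intronic sequence that the rule could take had a GC content of 32.0%.

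The GC difference varied with the length of the intron. Its median was −0.495 points in both classes under 1000 bp, 1.49 at 1000 to 1999 bp, 3.47 at 2000 to 4999 bp and 4.95 in introns of 5000 bp or more. Over the 897 members whose flanks were wholly intronic it was 3.96 points, and 66.6% were higher at the summit. In each replicate's own list the 100 strongest intronic peaks had a median GC content of 42.1%, 37.6%, 39.6% and 41.6%, against 36.6%, 36.6%, 32.7% and 33.7% in its other intronic peaks. GC content was thus higher among the strongest in 4 of 4 replicates, by 5.33 ± 3.05 points (SD), and least so in replicate 2. Its part in the signal was not tested.

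**Figure D5:**
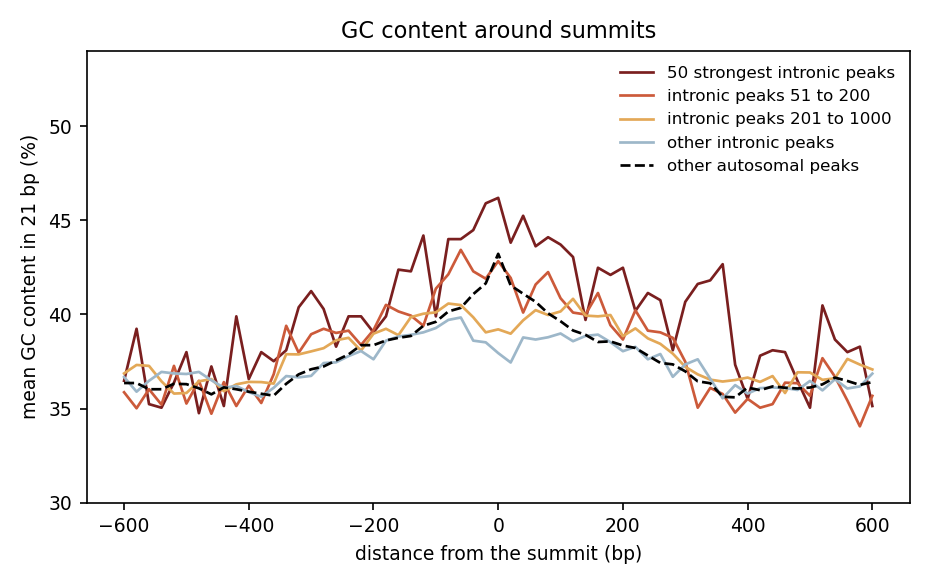
Mean GC content (%, in 21 bp windows) against distance from the summit (bp), for intronic peaks in 4 classes of pooled signal and for the other autosomal peaks. At the summit the mean is 46.19% for the 50 strongest intronic peaks, 42.83% for ranks 51 to 200, 39.21% for ranks 201 to 1000, 37.95% for the rest and 43.22% for other autosomal peaks.

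Short GA- and CA-rich words were more frequent at the summits of the 200 strongest members than in their flanks. They were picked from 2080 words for their gain at these same summits, and such picking favours large gaps. CTCTCC (both strands throughout) was within 50 bp of the summit in 17.0% of the 200 strongest members and in 5.0% of their flank windows. AGAGAA stood at 19.0% against 9.75%, GAGAGA at 18.0% against 8.75%, ACACAA at 12.5% against 5.0%, CGTCTC at 11.0% against 3.5% and ATACAC at 10% against 3.0%. These words overlap one another in GA and CA repeats, as the zfp-1 sequences show. Over all 2350 members the contrast was small: CTCTCC was at 5.57% of summits and 4.36% of flank windows, and in other autosomal peaks at 6.49% and 4.57%. GAGAGA was at 8.3% and 6.66% over all members, and at 9.72% and 6.44% in other autosomal peaks. For AGAGAA and CGTCTC, too, the gap was wider in other autosomal peaks than over all members, while for ACACAA and ATACAC it was narrower. The GA words were thus not particular to members, and other peaks of like strength were not counted. The 20 words with the greatest loss at the summits of the 200 strongest averaged 0.65 G or C of 6 bases, and the 20 with the greatest gain averaged 3.0, so that base composition moved with this contrast.

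CTCTCC was also more frequent in each replicate's own 100 strongest intronic peaks, at 7%, 10%, 7% and 17% in replicates 1 to 4, than in its other intronic peaks, at 3.99%, 3.51%, 3.16% and 3.27%. The difference was 6.76 ± 4.86 points (SD, n = 4) and was in the same direction in 4 of 4. With 100 peaks a replicate, 7% is 7 peaks, and these libraries also made the pooled ranking from which the word was picked.

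Motifs of the SIX-family type were at flank level. TCAGGTTTC with at most 1 mismatch was within 50 bp of 77 summits (3.28%), against 2.96% of flank windows, and in other autosomal peaks at 2.58% and 3.05%. It was at 0 of the 50 strongest members' summits, where their flank windows gave a mean of 1.5. TGATAC was at 2.55% of members' summits and 2.96% of their flank windows, and at 3.45% and 3.2% in other autosomal peaks. The word GTTCGANNC, which is part of the internal promoter box of tRNA genes and was looked at after the tRNA genes were seen, was at 1.62% of summits and 0.851% of flank windows. A match describes letters in a window and not a bound site.

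Repeat-masked letters made up a median of 27.7% of the sequence within 50 bp of the members' summits and 13.4% in the 50 strongest. At least 50% of the bases were masked in 596 members (25.4%), among them 1 of the 50 strongest and 0 of the thresholded ones. The strong members were thus poorer in annotated repeats than the rest, while 16 members (0.681%) had a centre that recurs exactly elsewhere.

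Members fell in 1743 of the 14851 protein-coding genes with intronic sequence that the rule could take (11.7%). Of these genes 1381 held 1 member, 220 held 2 and 142 held 3 or more. Genes with a member had a median of 2.57 kb of such sequence and those without 0.56 kb, so counts for genes are given with their sequence. Of single genes, ppfr-1 held the most, with 10 in 20.2 kb, or 496 per Mb. C14B4.2 had 9, dkf-2 (protein kinase D) and fkh-7 had 8 each, and 5 genes had 7 each, namely ercc-1, pqn-41, daf-5, cox-6B and pac-1 in order of summed signal.

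The 10 ppfr-1 members spread over 2 introns of the gene, the longer one of 10404 bp. Their signal had a lowest, median and highest value of 16.8, 20.6 and 41.5, 9 were found in at least 3 relaxed lists, and 7 were among the 1000 strongest peaks of at least 1 replicate (5 in 1 and 2 in 2 or more). The 9 members in C14B4.2 had a signal of 16.9 to 27.9, with a higher median of 23.4, but were found in fewer lists. Of these 9, 7 were in no replicate's 1000 strongest peaks, as were 82.3% of all members. Only 1 of the 9 was found in at least 3 relaxed lists, while of all members 25.3% were in 3 and 5.11% in 4. By number of lists fkh-7 lay between these genes, with 4 members found in at least 3 lists and a signal of 16.5 to 39.6. Many members in a gene thus went with many replicates in ppfr-1 and not in C14B4.2.

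The 21 lists of genes by tissue or function are described by members per Mb of their own intronic sequence, beside 104 (99.4 to 108) for all genes. Highest among lists with at least 10 members were cytoskeleton and motor genes (41 members, 189 per Mb, 135 to 256) and genes of signalling pathways (69 members, 176 per Mb, 137 to 223). Genes of nuclear hormone receptors followed at 147 (106 to 199), the basement membrane and matrix at 147 (78.4 to 252), homeobox and SIX-network genes at 138 (86.3 to 208), neuronal and synaptic genes at 135 (86.6 to 201) and body wall muscle at 132 (84.7 to 197). These last 4 intervals all include 104. Values below 104 with few members were those of germline (2 members, 45.5 per Mb, 5.51 to 164), epidermis and cuticle (4 members, 66.7, 18.2 to 171) and pharynx (1 member, 28.6, 0.725 to 159), and their intervals include 104 as well. All these intervals take members as independent, although 142 genes held 3 or more. The highest values were picked from 21 lists, and density also varied with intron length, so no list is called enriched.

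In body wall muscle 13 of 39 genes held a member, the strongest in ttn-1, which encodes a titin-like giant protein (signal 27.6, ranked 471 in replicate 2 and 2537 in replicate 4 and absent from replicates 1 and 3), and in stn-1, a syntrophin gene (26.5). Neuronal and synaptic genes had 14 of 40, led by unc-41 (35.5) and klc-2, a kinesin light chain gene (32.8). Adhesion and guidance genes had 20 of 40, against 11.7% of all genes, but with a median of 6.28 kb of such sequence, and their density of 120 per Mb (87.9 to 160) included that of all genes in its interval. They were led by the Eph receptor gene vab-1 (35.5, ranked 1924, 730, 8387 and 15798) and the semaphorin gene smp-1 (34.8). In none of these lists was a member in the thresholded list. That is near the background, since 0.553% of all members were thresholded and these lists held 24, 24 and 46 members.

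Signalling genes had 25 of 67, led by mpk-1 and by daf-5, a SKI-like partner of SMAD proteins in dauer formation. The strongest daf-5 member (II, 14040196 to 14040559, signal 39.3) lay in a first intron of 14446 bp and was ranked 4207, 2378, 74 and 761, and daf-5 held 7 members in all. The matrix list was led by pxn-1, with the snoRNA gene beside it, and unc-52, the perlecan gene (24.2). The cytoskeleton list was led by dhc-4 and unc-70 (37.2), and both of these peaks were beside a small RNA gene.

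Among homeobox and SIX-network genes 15 of 50 held a member, led by the zinc finger genes fozi-1 (26.8, ranked 2689, 17693, 906 and 18662), which acts in the postembryonic mesoderm, and egl-43 (25.5). Nuclear hormone receptor genes had 31 of 242, led by nhr-243 (30.5) and nhr-65 (30.3), and chemoreceptor genes had 72 of 1228 at 94.2 per Mb. Ion channel genes had 19 of 49 at 109 per Mb, led by the TRPV channel gene osm-9 (27.2), beside a tRNA gene, and unc-80 (26.1), which encodes a subunit of the sodium leak channel complex. Receptors for neurotransmitters had 17 of 51 at 122 per Mb, led by the muscarinic receptor gene gar-2 (25.5) and the GABA receptor gene unc-49 (25). In intestine 2 of 22 genes held a member, asp-2 (25) and fat-5 (21.1), at 99.4 per Mb (12 to 359). Of the ribosomal protein genes 1 of 34 did, rpl-14 (18.8), at 253 per Mb with an interval of 6.41 to 1410.5.

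The gene for the tagged protein itself held none: unc-39 (V, 14373074 to 14375881) had 1403 bp of sequence that the rule could take and 0 members. That is the common case, since 11.7% of all genes with such sequence held a member. Peaks in the promoter or exons of unc-39 would be outside the rule. The rescue marker unc-119 (III, 10902641 to 10908935) held 1 member (10905064 to 10905427), with a signal of 18.9 and rank 1312 among members. It was ranked 18663, 20393 and 3933 in replicates 1, 2 and 4 and was absent from replicate 3, so no replicate placed it near its top.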

How the data were processed

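Peak lists of 4 replicates, a pooled list and an IDR-thresholded list on ce11 were used. Per the deposited README files, the pooled list was called on all 4 replicates with a control and the relaxed lists hold peaks and background. Signal is the authors' deposited value per peak and ranked the peaks of each list. Column 9, deposited without a stated scale, was taken as the −log10 q-value that narrowPeak files usually hold. The aligner and peak caller are not given in the sources used.

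Summits were classed against Ensembl release 115 (WBcel235), using protein-coding transcripts of protein-coding genes. Lists were compared by overlaps of at least 1 bp. Shares have Clopper-Pearson and densities exact Poisson intervals at 95%. The replicate is the unit of the sign-flip permutation tests. The scripts were tested on simulated data (Python 3.11.15, scipy 1.17.1).

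The members and lists were chosen with earlier results of these data known. Named genes were hosts of thresholded members, of the 20 strongest members and of members in the 1000 strongest peaks of all 4 replicates, 6 genes by number of members (ties by summed signal), up to 2 genes per list by signal, unc-39 and unc-119. Hosts of members in the 1000 strongest peaks of 3 replicates, and genes tied in number of members, were named after their values were seen. Their roles are background knowledge. The ce10 lists were not used here. Sequences are printed for 7 of the 13 thresholded members.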

Additional observations from a re-analysis of the deposited data

How the results depend on the processing

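The 6 main results, which were the count of members, their thresholded share, their share among a replicate's 1000 strongest peaks and in its relaxed list (each as a difference from other autosomal peaks, in percentage points), the GC difference and the density in the longest introns, were recomputed under the alternatives that bear on them. Promoter windows of 500 and 2000 bp gave 2629 and 1864 members, and leaving out exons of any gene gave 2236. With a q column of at least 1.3 there were 5 members, of which 100% were thresholded, the difference among the strongest turned to 8.13 (exact permutation p = 0.375) and the density in the longest introns was 0.44 per Mb, since few peaks were left. With the whole peak in the intron there were 1009 members, of which 0.892% were thresholded, and both differences turned, to 0.319 among the strongest (exact permutation p = 0.5) and 2.61 in the relaxed lists (exact permutation p = 0.13, rounded), and the cause was not tested. The relaxed-list difference was 0.00159 with 50% of the peak covered. Leaving out 1 replicate gave −0.836 to −0.186 among the strongest and −0.672 to 0.587 in the relaxed lists, the latter without replicate 3. GC differences ran from 0.98 with 51 bp windows to 5.45 with the q column filter. Leaving out peaks near small RNA genes, and wholly intronic flanks, were chosen after seeing the data. No paired analysis was possible because there is 1 group. Peak lists carry no read counts, so weak peaks cannot be told from background by depth.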
